A study of Mus musculus with 8 samples.

Results

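The sestrins and a set of genes that restrain or tune mTORC1 were followed through RNA-seq of mouse neural progenitor cells. The genes were taken by symbol from the table of counts: Sesn1, Sesn2, Sesn3, Ddit4, Eif4ebp1, Eif4ebp2, Deptor, Tsc1, Tsc2 and Rragd. All 10 were present among the 32499 genes of the table, and all 10 were among the 15021 genes with enough counts to be tested.

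mTORC1 is a kinase complex that drives protein synthesis and growth when amino acids, energy and growth factors are plentiful. Amino acids act through the Rag GTPases, which bring the complex to the lysosome, and the sestrins block that step through GATOR2 when leucine is scarce. Growth factor and stress signals act through the complex of Tsc1 and Tsc2, which switches off the activator Rheb, and Ddit4 (REDD1) strengthens that block under hypoxia and other stress. Deptor binds mTOR itself. The 4E-BP proteins, encoded by Eif4ebp1 and Eif4ebp2, sit at the output: when mTORC1 is low they hold the cap-binding protein eIF4E and slow translation. Rragd differs from the others, since RagD is a part of the Rag dimer that recruits mTORC1 rather than a brake. Transcripts were measured here, and mTORC1 activity was not.

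The cells were C57BL/6 neural progenitors from the neural tube at embryonic day 14, collected by sorting with the dye NeuroFluor CDr3. One group of 4 libraries was labelled control and came from wild-type embryos. The other 4 were labelled 53BP1 KO, called KO-labelled here. Their embryos were offspring of Trp53bp1tm1Jc females and of males that carried in-frame deletions in the same gene made with Cas9. Mutant embryos were recognised by sequencing the locus. The labels state neither which in-frame deletion a library carried nor whether a library came from 1 embryo or from several. Part of the sorted cells went into differentiation culture, and which libraries came from cultured cells, or from which of the HiSeq models used, is not stated. The labels do not say either that replicates were separate embryos, so the p-values rest on the spread of these libraries alone, and that spread may be technical. Controls 2 and 3 were the most alike. Their counts differed by a chi-square per degree of freedom of 4.45, against 13.8 to 36.2 for the other pairs within a group. Whether these controls share an origin is not stated and was not tested.

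Total counts were between 11081419 and 24339621 per library, and levels are given as CPM, counts scaled by library size to a common total. In these units 3 counts were worth 0.126 to 0.261 CPM. Trp53bp1 itself had 412 to 497 counts among controls and 341 to 617 among KO-labelled libraries, so the level of the whole gene does not check the labels of in-frame deletions. Group and sex coincided: Xist had at least 23853 counts in each control and at most 16 in each KO-labelled library, whereas Ddx3y had 0 counts in every control and at least 579 in each KO-labelled library. A difference between the groups therefore cannot be told apart from a difference between female and male embryos. Beside the marker counts that follow, 16.1% of all genes tested were called higher in the KO-labelled group and 13.9% lower. All 10 progenitor markers examined were detected, 5 of them higher and 2 lower, and their summed level was 9947 to 12048 CPM among controls and 9555 to 12893 CPM among KO-labelled libraries. Fabp7, which was not called, gave most of that sum, with group means of 7591 and 7793 CPM. The 2 lower were Nes, from 212.9 to 113.9 CPM (-0.90 on the log2 scale), and Vim (-0.39). Markers listed for other cell types were counted as well, and some of their sums differed between the groups. Of 6 astrocyte markers 5 were higher, and their sum was 208.1 to 353.7 CPM among controls and 942.1 to 1088 CPM among KO-labelled libraries. Of 6 mesenchymal markers 4 could be tested and 3 were lower, with sums of 29.5 to 77.6 and of 9.70 to 12.2 CPM. Of 5 skeletal muscle markers 3 could be tested and 2 were lower, with sums of 31.6 to 42.5 and of 17.2 to 20.4 CPM. Of 8 neuronal markers 2 were higher and 3 lower (383.8 to 516.1 and 356.6 to 431.9 CPM), and of 6 oligodendrocyte lineage markers 3 were higher and 1 lower (2640 to 2964 and 2446 to 2913 CPM). Both of these sums overlapped between the groups. Olig1 and Olig2 gave most of the latter, with means of 1325 and 1380 CPM among controls, and neither passed the test. Endothelial markers summed to 5.81 to 12.03 and 2.05 to 5.05 CPM, microglial markers to 1.53 to 5.10 and 0.836 to 3.31 CPM, and erythroid markers, with Hba-a1 and Hba-a2 at 0 in all libraries, to 0.822 to 1.95 and 1.08 to 2.37 CPM. Control 4 stood apart in some of these sums. Its astrocyte sum was 208.1 CPM, with the other controls between 343.8 and 353.7 CPM, and its mesenchymal sum was 77.6 CPM, with the others between 29.5 and 34.2 CPM. The low astrocyte sum came from Agt (231 counts, others 1097 to 1633) and Slc1a2 (2245 counts, others 3850 to 4315). Gfap (187 counts) and Aldh1l1 (161 counts) were instead highest in control 4 among the controls. Control 4 also had the highest progenitor, neuronal, endothelial and muscle sums of the controls. Within the progenitor list it had the most counts of the controls for Fabp7, Nes and Sox9. It had the fewest for Sox2, Pax6, Hes1, Vim and Slc1a3. The part of these cells in the results below was not tested. In bulk RNA, fewer cells of a type and less RNA per cell cannot be told apart.

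Of the 10 genes, 5 rose in the KO-labelled group: Eif4ebp1, Sesn2, Ddit4, Rragd and Sesn3. None fell. In each of the 5, every KO-labelled library lay above every control. Among all genes tested, 30.0% were called, 16.1% as higher and 13.9% as lower, and the groups did not overlap for 29.9%. The median log2 fold change was 0.51 over the 10 genes and 0.00 over all genes tested. The 10 genes were chosen with earlier results of these data known, so their median is a description and was not tested. The genes that rose were spread over the pathway, with both an amino acid and a stress input, a Rag GTPase and an output gene among them, while Tsc1, Tsc2 and Deptor did not pass the test. At an unadjusted p under 0.05, 6 of the 10 were higher and 1, Sesn1, was lower. DESeq2 called 5 higher and 1 lower, and voom called 6 higher and 1 lower. Over all genes tested, DESeq2 called 2398 higher and 2333 lower, and voom 3127 and 2974. Without control 4, edgeR called 1 of the 10, Sesn1, lower as well.

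**Figure D1:**
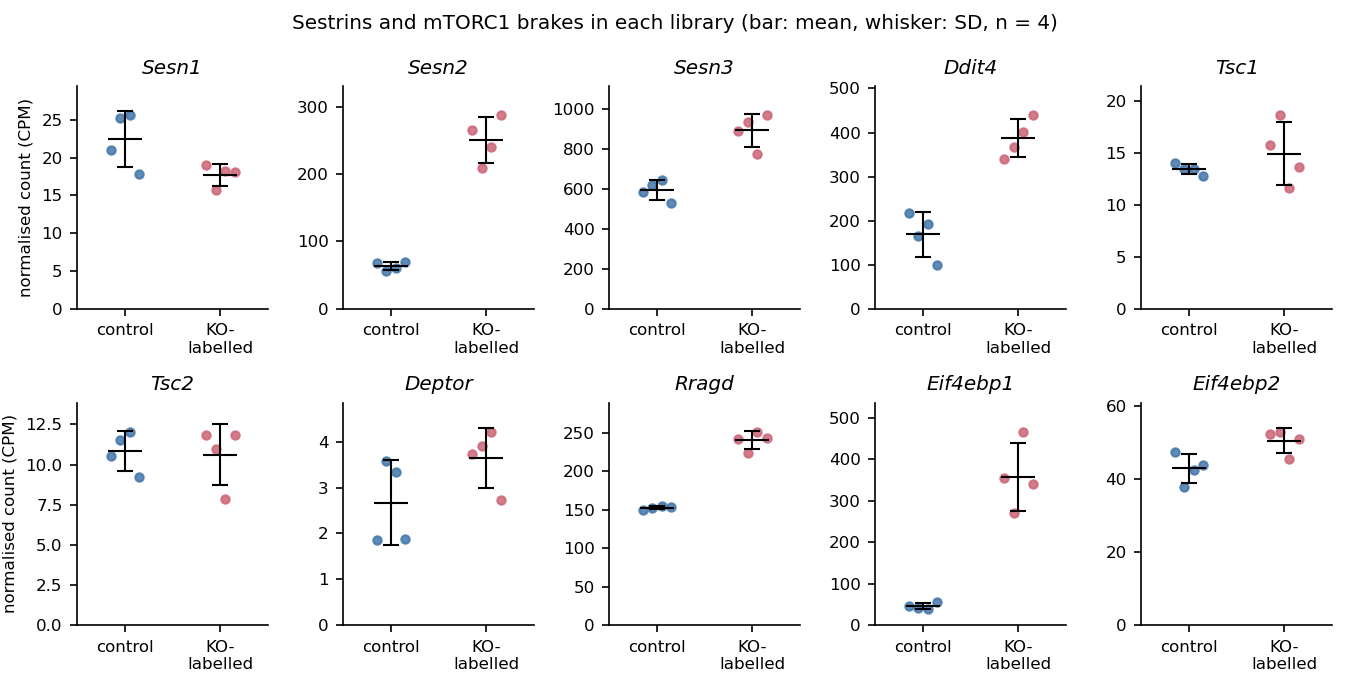
Normalised counts (CPM, y axis from 0) of the 10 genes in the 4 control and 4 KO-labelled libraries. Points are libraries, the bar is the mean and the whiskers are the SD. The groups are apart for Sesn2, Sesn3, Ddit4, Rragd and Eif4ebp1 and overlap for Sesn1, Tsc1, Tsc2, Deptor and Eif4ebp2.

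RefSeq start sites (GRCm38.p6) matched 8 of the 10 genes. Eif4ebp1 and Deptor had no entry and were not searched. The 250 bases upstream of each start were searched on both strands. The windows of Sesn2, Sesn3 and Ddit4 are shown because they were the genes with a rise whose windows held a CCAAT box, so what they share in sequence was the reason for the choice. Capitals mark CCAAT or its reverse complement, the CCAAT box. The window of Sesn2 is chr4:132510457-132510706 on the minus strand, that of Sesn3 is chr9:14276051-14276300 on the plus strand and that of Ddit4 is chr10:59951771-59952020 on the minus strand. These positions are those of the RefSeq table and not of mm9, on which the counts were made.
Sesn2: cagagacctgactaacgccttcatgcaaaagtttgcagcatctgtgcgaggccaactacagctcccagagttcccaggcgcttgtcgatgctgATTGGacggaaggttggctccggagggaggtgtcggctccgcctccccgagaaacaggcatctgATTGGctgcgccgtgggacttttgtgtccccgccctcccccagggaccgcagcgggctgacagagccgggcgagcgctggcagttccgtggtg
Sesn3: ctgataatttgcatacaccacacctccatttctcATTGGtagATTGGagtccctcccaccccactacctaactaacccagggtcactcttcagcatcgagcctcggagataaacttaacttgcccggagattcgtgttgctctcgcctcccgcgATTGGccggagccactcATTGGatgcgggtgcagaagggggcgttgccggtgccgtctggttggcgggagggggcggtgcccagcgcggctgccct
Ddit4: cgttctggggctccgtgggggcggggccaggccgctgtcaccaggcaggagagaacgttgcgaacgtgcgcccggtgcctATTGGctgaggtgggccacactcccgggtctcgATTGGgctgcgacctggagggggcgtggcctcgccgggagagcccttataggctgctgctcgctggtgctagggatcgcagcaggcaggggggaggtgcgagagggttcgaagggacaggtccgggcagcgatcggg
Sesn2 had 2 CCAAT boxes, whose first bases lay at -157 and -93 from the start. Sesn3 had 4, at -216, -208, -96 and -79, and Ddit4 had 2, at -170 and -137. The window of Rragd, which also rose, had 0, as did those of Tsc1, Tsc2 and Eif4ebp2. Sesn1, which did not pass the test, had 1 in the window of each of its start sites. Of all 32851 windows of this length, 33.8% held a CCAAT box. The core of the C/EBP-ATF response element, searched as TGATGNAA on both strands, was in 0 of the windows of the 8 genes matched, which leave out Eif4ebp1, and in 3.45% of all windows. The E-box CACGTG, the core of the element bound by the TFEB family, was in 0 of the windows of the same 8 genes and in 6.02% of all windows. The GC box GGGCGG, also searched on both strands, was found 1 time in each of the windows printed. It lay at -64 for Sesn2, -25 for Sesn3 and -232 for Ddit4, and did not overlap a CCAAT box. Sesn1 and Eif4ebp2, which did not pass the test, had more, 4 in each Sesn1 window and 2 in that of Eif4ebp2. The windows of Rragd, which rose, and of Tsc1 and Tsc2 had 0 GC boxes. Of all windows, 32.7% held a GC box. A match is a description of the letters and not of a bound site, and no match speaks only of these 250 bases.

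The 3 sestrins did not move alike. They are related proteins that bind GATOR2. Sesn2 carries the best described leucine pocket, Sesn1 is known as a p53 target, and Sesn3 as a target of FoxO factors. Sesn2 had 67.75, 55.6, 59.9 and 69.3 CPM in controls 1 to 4 and 265.5, 208.7, 240.8 and 287.9 CPM in KO-labelled libraries 1 to 4. The lowest KO-labelled library, number 2, was thus far above the highest control. The mean rose from 63.1 ± 6.47 to 250.8 ± 33.996 CPM (SD, n = 4), 3.97-fold with a 95% interval of 3.36 to 4.70 (edgeR quasi-likelihood test, Benjamini-Hochberg adjusted p = 1.52e-08). Ordered from the largest rise down, it stood at place 127 of the 15021 genes tested.

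Sesn3 had the highest counts of the 10 genes. It had 582.1, 615.8, 644.4 and 529.5 CPM in controls 1 to 4 and 886.3, 932.8, 773.8 and 967.4 CPM in KO-labelled libraries 1 to 4. The groups did not overlap, and KO-labelled 3 was the nearest to the controls. The rise was 1.501-fold (95% interval 1.30 to 1.73, adjusted p = 0.000385 by edgeR), from 593.0 ± 49.4 to 890.1 ± 84.3 CPM. The intervals of Sesn2 and Sesn3 did not overlap, although the difference between their changes was not tested.

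Sesn1 went the other way in its means. It had 21.0, 25.3, 25.7 and 17.8 CPM in controls 1 to 4 and 19.0, 15.7, 18.3 and 18.1 CPM in KO-labelled libraries 1 to 4. Control 4 lay among the KO-labelled libraries. Its log2 fold change was -0.34 (95% interval -0.61 to -0.06), which did not pass the test (adjusted p = 0.0611 by edgeR). Without control 4 it was -0.44 and passed (adjusted p = 0.00690), and it also passed with DESeq2 (adjusted p = 0.0444), upper-quartile scaling, a stricter filter on low counts and voom (adjusted p = 0.00620). Over 16 alternatives the adjusted p ran from 0.00620 to 0.193, with 5 below 0.05.

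Together the sestrins summed to 678.6 ± 47.8 CPM among controls and 1159 ± 98.6 CPM among KO-labelled libraries. Their make-up differed as well. Sesn2 gave 10.1%, 7.99%, 8.21% and 11.2% of the sestrin counts in controls 1 to 4 and 22.7%, 18.0%, 23.3% and 22.6% in KO-labelled libraries 1 to 4. Its mean share was 9.38% ± 1.56 among controls and 21.7% ± 2.44 among KO-labelled libraries. KO-labelled 2 had the lowest share in its group, still above every control. Sesn3 gave 87.3% ± 1.22 and 76.8% ± 2.58 of the counts, and Sesn1 3.29% ± 0.340 and 1.54% ± 0.190. These are shares of counts and not of molecules, since a long transcript gives more counts, and they were not tested.

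**Figure D2:**
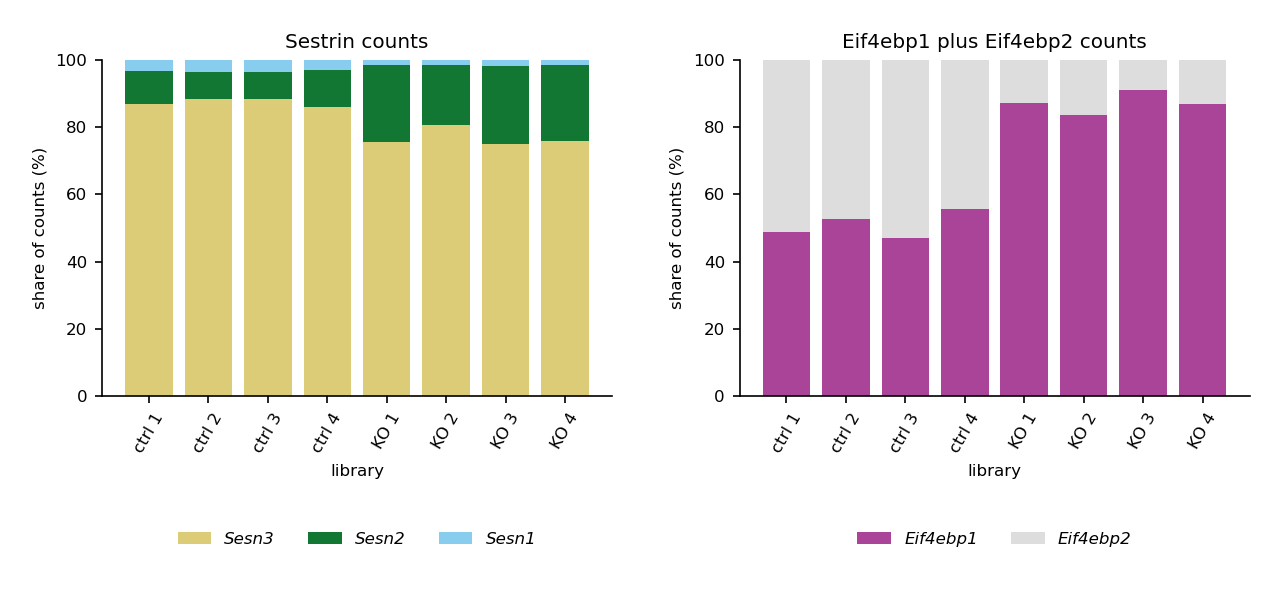
Share of counts (%, y axis from 0 to 100) in each of the 8 libraries (ctrl, control; KO, KO-labelled). Left, the 3 sestrins: Sesn2 took 7.99% to 11.2% among controls and 18.0% to 23.3% among KO-labelled libraries. Right, Eif4ebp1 against Eif4ebp2: Eif4ebp1 took 47.1% to 55.7% and 83.6% to 91.1%.

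Of the genes that act through the TSC complex, Ddit4 rose and Tsc1 and Tsc2 did not pass the test. Ddit4 had 216.1, 165.7, 192.6 and 98.7 CPM in controls 1 to 4 and 340.5, 366.5, 400.5 and 439.7 CPM in KO-labelled libraries 1 to 4. Control 4 was well below the other controls. It had the lowest astrocyte sum of the controls, through Agt and Slc1a2 and not Gfap, and the highest mesenchymal sum. The part of those cells in its Ddit4 value was not tested. The spread among controls (30.1% of their mean) was wider than among the KO-labelled libraries (11.1%). The mean rose 2.30-fold, from 168.3 ± 50.7 to 386.8 ± 43.0 CPM (95% interval 1.76 to 3.01, adjusted p = 0.000190 by edgeR). Without control 4 the log2 fold change was 1.00 in place of 1.20 and remained past the threshold.

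Tsc1, which stabilises the complex, had 14.0, 13.4, 13.5 and 12.8 CPM in controls 1 to 4. It had 15.8, 18.6, 11.6 and 13.7 CPM in KO-labelled libraries 1 to 4, on either side of the controls. Its log2 fold change was 0.14 (95% interval -0.15 to 0.44, adjusted p = 0.465 by edgeR). Leaving out KO-labelled 2 gave 0.03 and leaving out KO-labelled 3 gave 0.24, and neither value passed. Tsc1 lies on chromosome 2, as does Trp53bp1. Tsc2, the subunit that inactivates Rheb, had 9.25 to 12.1 CPM among controls and 7.84 to 11.9 CPM among KO-labelled libraries. Its log2 fold change was -0.03 (95% interval -0.35 to 0.29, adjusted p = 0.907), and it was above 0 without control 3 (0.02), without KO-labelled 3 (0.09) and without a filter on low counts (0.04). The intervals thus allow a rise of up to 1.36-fold for Tsc1 and of up to 1.22-fold for Tsc2. Exons of Tsc2 share 7.20% of their bases with Pkd1 on the opposite strand, and the strand setting of the counting is not given in the sources used here.

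Deptor was the rarest transcript of the 10, with 34, 66, 52 and 29 counts in controls 1 to 4 and 76, 45, 75 and 65 counts in KO-labelled libraries 1 to 4. That is 1.86 to 3.58 CPM among controls and 2.73 to 4.23 CPM among KO-labelled libraries, and the groups overlapped. Its log2 fold change of 0.44 (95% interval -0.10 to 0.98, adjusted p = 0.212 by edgeR) did not pass, and at this depth its interval ran from 0.932-fold to 1.97-fold. Without control 1 the log2 fold change was 0.29 and did not pass either. Exons of Deptor share 3.41% of their bases with Gm9920 on the opposite strand, so the unknown strand setting bears on Deptor as well. Rragd had the smallest spread of the 10 genes in these libraries, relative to its mean, in both groups. It had 149.8, 152.7, 154.5 and 153.0 CPM in controls 1 to 4, a spread of 1.30% of the mean, and 242.0, 224.1, 251.6 and 242.8 CPM in KO-labelled libraries 1 to 4. The rise, 1.58-fold (95% interval 1.40 to 1.77, adjusted p = 2.25e-05), was close in size to that of Sesn3, but with little spread in either group.

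The output genes held the largest rise. Eif4ebp1 had 44.9, 42.2, 37.9 and 55.3 CPM in controls 1 to 4 and 354.2, 270.3, 466.8 and 339.2 CPM in KO-labelled libraries 1 to 4. KO-labelled 3 was the highest and KO-labelled 2 the lowest, and even the latter was far above control 4, the highest control. The mean rose from 45.1 ± 7.41 to 357.6 ± 81.4 CPM, 7.94-fold (95% interval 6.25 to 10.1, adjusted p = 7.99e-09 by edgeR). It stood at place 53 of the 15021 genes when ordered from the largest rise down.

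Eif4ebp2, the 4E-BP that prevails in the adult brain, had 47.4, 37.8, 42.5 and 44.0 CPM in controls 1 to 4 and 52.5, 53.1, 45.5 and 51.1 CPM in KO-labelled libraries 1 to 4. KO-labelled 3 lay below control 1, so the groups overlapped. Its log2 fold change of 0.24 (95% interval 0.03 to 0.45) did not pass the test (adjusted p = 0.0846 by edgeR) and passed with voom alone (adjusted p = 0.0111), over 16 alternatives with adjusted p of 0.0111 to 0.273. Eif4ebp1 gave 51.1% ± 3.90 of the counts of this pair among controls and 87.2% ± 3.08 among KO-labelled libraries. Their sum was 87.99 ± 9.43 CPM and 408.2 ± 78.2 CPM. Eif4ebp3, the third family member, stayed between 0.645 and 1.47 CPM in all libraries.

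**Figure D3:**
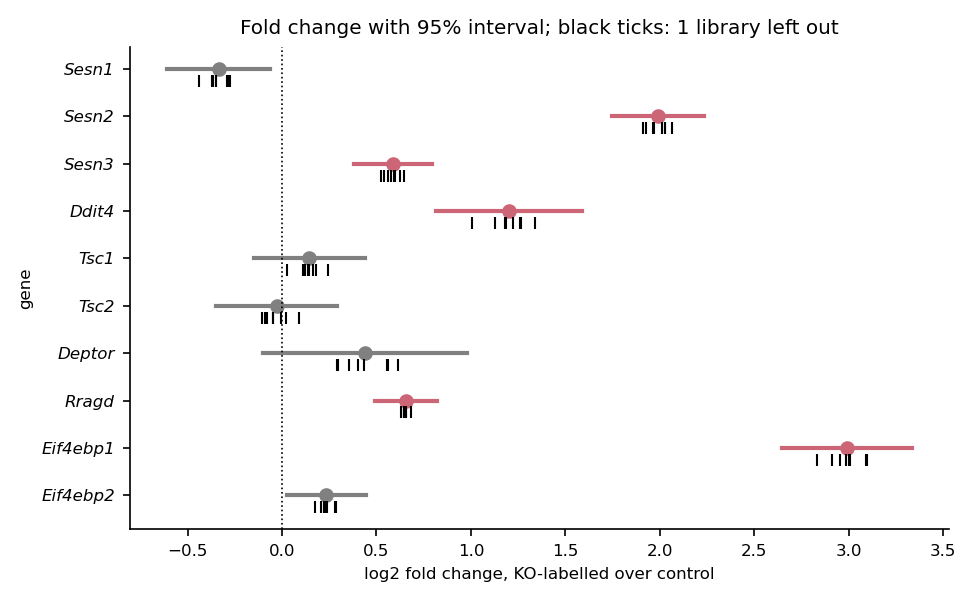
Log2 fold change of each gene, KO-labelled over control (x axis), with its 95% interval from edgeR. Red marks genes past the threshold and grey the others; the black ticks below each are the values with 1 library left out. The intervals of the 5 red genes lie above 0, and for Ddit4 the lowest tick is 1.00, without control 4.

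Levels can be set against each other only per length. Per kb of exon in GENCODE vM21, Ddit4 had the highest level in the controls, 95.9 ± 28.9 CPM per kb. Sesn3 followed with 38.8 ± 3.23 and Rragd with 29.5 ± 0.384, without overlap between neighbours. Next were Eif4ebp1 with 20.5 ± 3.37 and Sesn2 with 18.2 ± 1.86, whose ranges overlapped. Eif4ebp2 (7.42 ± 0.684) and Sesn1 (5.64 ± 0.935) came next, with ranges of 6.54 to 8.19 and of 4.48 to 6.45. Tsc1 and Tsc2, whose proteins form a complex, had nearly the same level, 1.13 ± 0.0407 and 1.13 ± 0.129 CPM per kb, and Deptor had 0.301 ± 0.105.

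In the KO-labelled libraries the order at the top was different. Ddit4 had 220.4 ± 24.5 CPM per kb and Eif4ebp1 162.9 ± 37.1, and their ranges overlapped. Sesn2 had 72.2 ± 9.78 and Sesn3 58.3 ± 5.52, with ranges that just overlapped, although Sesn3 had had the higher level of both in every control. Rragd had 46.4 ± 2.23. Below them the order was as in the controls. Lengths were those of all annotated exons, from 1.75 kb for Ddit4 to 15.3 kb for Sesn3, and a gene whose exons are used only in part has its level understated on this scale.

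**Figure D4:**
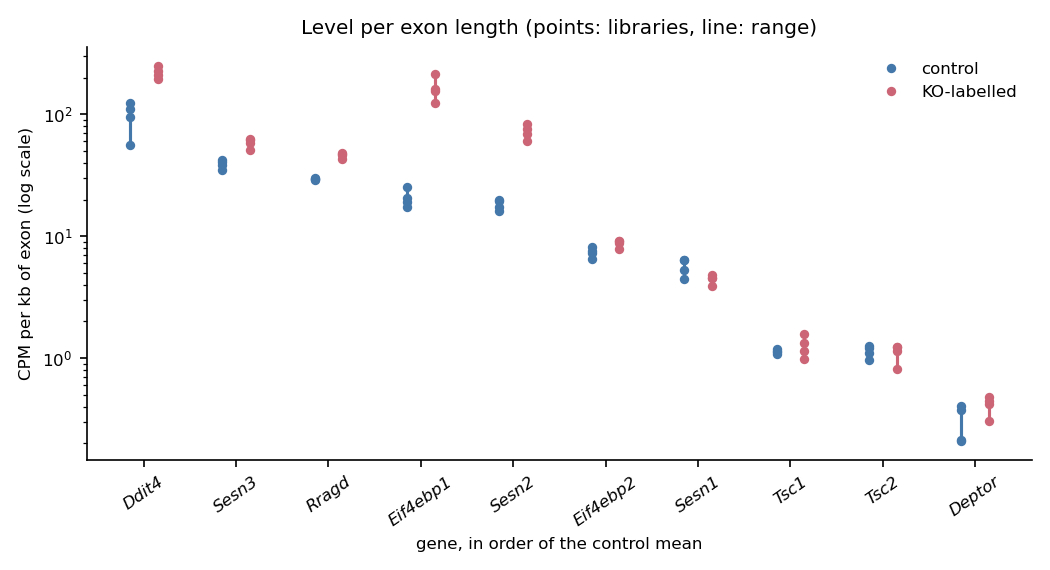
Level per kb of exon (CPM per kb, log scale) of the 10 genes, ordered by their control mean. Points are libraries and lines join the lowest to the highest of a group. Sesn2 lies below Sesn3 in the controls, at 16.01 to 19.9 against 34.7 to 42.2, and overlaps with it among KO-labelled libraries, at 60.1 to 82.9 against 50.7 to 63.4.

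The other genes of the pathway were taken from 6 lists. Of their 69 genes, all tested, 11 (15.9%) were higher and 2 (2.90%) were lower, beside 16.1% and 13.9% of all genes tested. Groups without overlap were found for 20.3% of the 69 genes, beside 29.9% of all genes. The 2 lower became 1 without control 2, control 3 or KO-labelled 4, and 4 without control 4, KO-labelled 2 or KO-labelled 3. The median log2 fold change was 0.02. Of the 6 genes of the complex itself and of Rheb, 0 were higher and 0 lower by edgeR, as also by DESeq2, by voom and at an unadjusted p under 0.05. Mtor, the kinase itself, had 148.8 ± 7.21 CPM among controls and 147.9 ± 20.4 CPM among KO-labelled libraries.

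The Rag, Ragulator and folliculin genes were the list with the most rises. Of 12, 5 (41.7%) were higher and 0 were lower (median 0.28), beside 16.1% and 13.9% of all genes tested. Groups without overlap were found for 25% of the list, beside 29.9% of all genes. By DESeq2, by voom and at an unadjusted p under 0.05, 0 genes of the list were lower as well. Flcn, which encodes folliculin, the activator of RagC and RagD, had 25.3, 20.2, 20.4 and 16.6 CPM in controls 1 to 4 and 30.5, 32.9, 27.6 and 34.8 CPM in KO-labelled libraries 1 to 4. It rose by 0.61 on the log2 scale (adjusted p = 0.00258, SE 0.13). Its partner Fnip1 rose by 0.53 (SE 0.09), Rraga, which encodes a Rag that pairs with RagC or RagD, by 0.41 (SE 0.10) and the Ragulator genes Lamtor4 by 0.38 (SE 0.12) and Lamtor1 by 0.30 (SE 0.10). Rragc, the closest relative of Rragd, had 7.85 ± 0.792 and 9.39 ± 1.03 CPM, a log2 fold change of 0.25 (SE 0.13) that did not pass (adjusted p = 0.175). The 5 rises became 3 when control 2 or 3 or KO-labelled 1, 3 or 4 was left out, and Lamtor4 was among those lost each time.

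Among the 15 genes of GATOR, KICSTOR and the nutrient sensors, on which the sestrins act, 1 (6.67%) was higher and 0 were lower (median 0.04). Of all genes tested, 16.1% were higher and 13.9% lower. The rise was in Gatsl3, the symbol in the table for Castor1, an arginine sensor that blocks GATOR2 as Sesn2 does. It rose from 0.707 ± 0.1496 to 2.96 ± 0.926 CPM (2.07 on the log2 scale, adjusted p = 0.000148, SE 0.30), at a level of few counts. At an unadjusted p under 0.05, 3 were higher and 2 lower. DESeq2 called 1 higher and 0 lower, and voom 4 higher and 0 lower. The most abundant genes of the list, Sec13 (-0.13, SE 0.10) and Mios (0.04, SE 0.09), both of GATOR2, did not pass. The 1 rise became 2 without control 1 and 3 without KO-labelled 3, and 1 gene was lower without control 4 or without KO-labelled 3.

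Of 14 inputs to the TSC complex, 11 did not pass the test, 1 (7.14%) was higher and 2 (14.3%) were lower, beside 16.1% and 13.9% of all genes (median -0.05). Ddit4l (REDD2), the relative of Ddit4, had 41.7, 35.2, 30.2 and 25.1 CPM in controls 1 to 4 and 17.0, 14.0, 17.4 and 20.0 CPM in KO-labelled libraries 1 to 4. It fell by 0.94 on the log2 scale (SE 0.15, adjusted p = 0.000330), while Ddit4 rose, and in neither gene did the groups overlap. Tbc1d7, the third subunit of the TSC complex, rose from 2.92 ± 0.595 to 5.14 ± 1.04 CPM (0.79, SE 0.20). Prkab1, a regulatory subunit of the energy sensor AMPK, fell from 8.65 ± 0.566 to 6.53 ± 0.438 CPM (-0.41, SE 0.13). The 2 falls became 1 when control 2 or 3 or KO-labelled 3 or 4 was left out, and 4 without KO-labelled 2.

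Of 18 outputs of mTORC1, 3 (16.7%) were higher and 0 lower (median 0.01), beside 16.1% and 13.9% of all genes tested. The share of rises was thus near that of all genes. Grb10, an adaptor that dampens insulin receptor signalling, rose from 5.58 ± 1.04 to 19.3 ± 4.17 CPM (1.77, SE 0.18, adjusted p = 4.7e-06). Mitf, a transcription factor of the TFEB family that Rag GTPases hold in the cytoplasm, rose from 9.44 ± 1.43 to 19.1 ± 1.04 CPM (1.01, SE 0.13). Larp1, which represses mRNAs of the translation machinery, rose by 0.37 (SE 0.08). At an unadjusted p under 0.05, 5 genes of the list were higher and 2 lower, DESeq2 called 1 lower and voom 3, and 2 were lower without KO-labelled 3. Eif4e, the factor that the 4E-BP proteins hold, had 328.9 ± 15.6 CPM among controls and 282.8 ± 32.5 CPM among KO-labelled libraries (-0.22, SE 0.09, adjusted p = 0.0945). Eif4b, the most abundant gene of the list, had 1162 ± 34.1 and 1004 ± 15.3 CPM (-0.21, SE 0.08, adjusted p = 0.0520 by edgeR). It did not pass, although its groups did not overlap. Groups without overlap were found for 27.8% of the list, beside 29.9% of all genes. Rps6kb1, which encodes the S6 kinase, had a log2 fold change of 0.01 (SE 0.08). Of the 4 genes of mTORC2, 1 (25%) was higher, Mapkap1 (0.31, SE 0.08), and 0 were lower. Of these 4, 2 were higher and 1 lower at an unadjusted p under 0.05, 1 was higher and 0 lower by DESeq2, and 1 was lower by voom or without control 1.

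**Figure D5:**
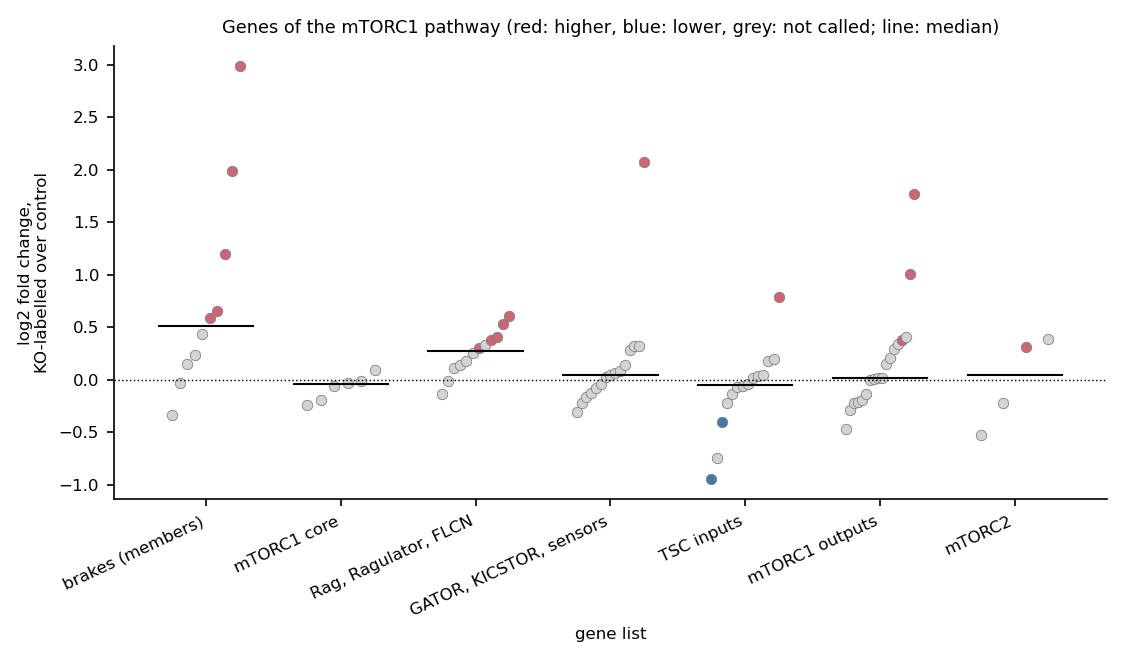
Log2 fold change (y axis, KO-labelled over control) of the 10 genes and of the tested genes of 6 lists of the mTORC1 pathway. Each point is a gene, red where higher, blue where lower and grey where not past the threshold, and the line is the median of the list. The median is 0.51 for the 10 genes and between -0.05 and 0.28 for the lists. Both were chosen with earlier results of these data known.

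For each gene that rose, the 3 genes of most similar profile were taken by Pearson's r of log2 CPM over the 8 libraries. The choice was among all tested genes with a mean of at least 5 CPM and without a predicted name. The 8 libraries form 2 groups of 4 that share their cells and their scaling, so r mostly follows the difference between groups and is given as a description. For Sesn2 they were Pycr1 (0.999), Sars (0.998) and Xpot (0.998). For Eif4ebp1 they were Asns, Gars and Phkb (each 0.997), and for Rragd they were Cebpg and Rrm2b (each 0.998) and Aldh9a1 (0.997). For Ddit4 they were Cdc42ep3 (0.995), Ptpra (0.993) and Gdpd2 (0.990), and for Sesn3 they were Josd2 (0.996), Thsd7a (0.992) and Lrsam1 (0.992). No gene was named for more than 1 of the 5, with only 3 kept for each. Between the 5 themselves r ran from 0.850 (Ddit4 and Eif4ebp1) to 0.993 (Rragd and Eif4ebp1).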

How the data were processed

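RNA was sequenced from 4 control and 4 53BP1 KO libraries of sorted mouse neural progenitors. The authors deposited a table of counts, whole numbers of reads for each gene symbol, without normalisation. Per the submitters' processing notes, HTSeq 0.6.1p1, CASAVA and the builds mm9 and NCBIM37 were used. The kit was stranded, per the labels' protocols, and neither aligner nor strand setting is given in the sources used here. Groups were taken from the sample titles.

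After the filterByExpr filter and TMM scaling, groups were compared in edgeR 4.0.16 (R 4.3.3) by its quasi-likelihood test, and CPM values use the same scaling. P-values were adjusted over all 15021 genes, with a threshold of 0.05. The SE is the size of the log2 fold change divided by the square root of F. The code was tested on simulated data, where the share of false calls was judged on the mean of repeated draws after a single draw had reached the limit set for it. DESeq2 1.42.0, limma 3.58.1 voom, other scalings and filters, a replicate block and leaving out each library were alternatives. The 10 genes, the lists and the tests were chosen with earlier results of these data known.

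From each of the 6 pathway lists, up to 4 genes past the threshold with at least 5 CPM in the higher group were named, or the 2 most abundant. Lamtor1, Gatsl3, Rragc, Rps6kb1, Eif4e, Eif4b and Eif4ebp3 stand outside this rule and were chosen after their values were seen. The older symbols of Castor1 and of Bmt2 came from RefSeq synonyms, that of Bmt2 after the table had been seen. Kics2, of the GATOR and KICSTOR list, was counted under BC048403, a match that RefSeq synonyms did not give.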

Additional observations from a re-analysis of the deposited data

Results flagged for a closer look

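In 3 of 58 groups of 4 libraries examined, 1 library stood apart from the other 3 by Dixon's criterion (the gap to its neighbour as a share of the group's range), where chance gives about 1 in 20. The Sesn2 share of the sestrin counts was 18.0% in KO-labelled 2, with the other KO-labelled libraries between 22.6% and 23.3%. Mitf had 7.31 CPM in control 4, with the other controls between 10.03 and 10.4 CPM. Fnip1 had 315.0 CPM in KO-labelled 3, with the other KO-labelled libraries between 299.5 and 302.1 CPM.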

How the results depend on the processing

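The rises of Sesn2, Sesn3, Ddit4, Rragd and Eif4ebp1 kept their direction and passed the threshold under all 16 alternatives, with log2 fold changes of 1.91 to 2.11, 0.53 to 0.65, 1.00 to 1.34, 0.62 to 0.72 and 2.83 to 3.10. The number of the 10 genes called lower, 0, was 1 (Sesn1) with DESeq2, upper-quartile scaling, the stricter filter (1 CPM in 4 libraries) or voom, and 0 to 1 with 1 library left out (1 without control 4). The pathway genes called higher, 11, were 17 with no filter on counts and 18 under voom. Over all genes, 2412 of 15021 tested were higher, 2879 of 30508 with no filter and 3127 of 15021 under voom. Pathway genes called lower, 2, were 4 with DESeq2, RLE scaling or the stricter filter, 5 with upper-quartile scaling and 7 with voom. They were 1 to 4 with 1 library left out (1 without control 2, control 3 or KO-labelled 4, and 4 without control 4, KO-labelled 2 or KO-labelled 3). Over all genes, 2087 were lower, 2333 with DESeq2, 2204 with RLE scaling and 2235 with the stricter filter. Upper-quartile scaling gave 2400 lower, voom 2974, and leaving out 1 library 1497 to 2193. The causes were not tested. The Sesn2 share of the sestrin counts rose by 11.7 to 13.5 percentage points with 1 library left out.

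With the replicate block, 4177 genes were called in place of 4499, and 5 of the 10 genes were higher and 0 lower. The main fit had no block because the labels do not say that a replicate number marks a litter, batch or day. The deviations of same-numbered libraries from their group means had correlations of 0.25, 0.28, -0.16 and 0.01. Those of differently numbered libraries ran from -0.32 to 0.15. These values do not decide whether the numbers pair the libraries. Prkab1 did not pass with the block (adjusted p = 0.0585). Depth limits Deptor, with at most 76 counts in a library.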
